A study of Homo sapiens with 32 samples.

Results

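The genes described here are antisense lncRNA genes, the long noncoding RNA genes whose symbol joins the name of another gene to the suffix -AS1, each set beside the sense gene it is named after. A gene was taken as a member when its symbol ended in -AS1 and at least 4 of the 32 libraries held a level of at least 1 CPM, its count scaled to the library total. Of the 48804 genes in the count table, 1596 had such a symbol, 1166 of these had a count, and 353 were members. Members were thus selected on the levels measured in all 32 libraries, the treated ones included, so counts over the members are descriptions and were given no test of their own. No member reached the floor through the libraries of 1 condition alone, but 60 members reached it in treated libraries only and 0 in control libraries only. Those 60 entered through treated libraries, so a rise among them is no support for a direction. The members just inside the floor were FAM13A-AS1 and RASAL2-AS1, whose 4th highest level was 1.01 CPM each, and those just outside were ST7-AS1, at 1 CPM or more in 3 libraries, and KLF3-AS1, with a 4th highest level of 0.992 CPM.

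The study treated MDA-MB-468, a human triple-negative breast cancer cell line, with PBS (control), 0.5 µM salinomycin (Sal, a potassium ionophore), 15 µM dasatinib (Das, an inhibitor of Abl and Src family kinases) or both together (S + D, 15.5 µM of drug in all), each for 24 h and for 72 h. Each of the 8 conditions had 4 libraries of biological replicates, 3 of them numbered and 1 unnumbered, and all came from this 1 cell line. Totals ran from 25692561 to 42769687 counts per library. The epithelial genes EPCAM (206 to 393 CPM) and KRT8 (205 to 1429 CPM) and the receptor gene EGFR (2793 to 5923 CPM) were present in every library, PGR, the progesterone receptor gene, had 0 counts in 25 of the 32, and PTPRC, a marker of blood cells, reached at most 0.132 CPM. ESR1, the estrogen receptor gene (3.64 to 12.0 CPM), ERBB2 (56.8 to 192 CPM) and the collagen gene COL1A1 (18.2 to 120 CPM) also had counts in every library, whereas COL1A2 was at 0 in 30. The unnumbered libraries of a time point deviated from their group means together, with correlations across genes of 0.613 to 0.691 at 24 h and 0.532 to 0.626 at 72 h. The Das library of replicate 3 at 72 h lay nearer to the controls than the other 3 for many members. Counts of members are therefore also given for the numbered libraries alone, and values without these libraries stand beside the named genes below where a call printed for 72 h changed.

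Antisense RNAs are transcribed from the strand opposite to a known gene. Many start beside a protein-coding promoter and run away from it, because promoters in CpG islands often fire in both directions, and others start inside or behind the sense gene and run through it. Some are known to act on the neighbouring gene, through its chromatin or by pairing with its RNA, others act elsewhere in the cell, for example by holding microRNAs or RNA-binding proteins, and for most no function is known. Whether an antisense RNA and its partner move together or apart is what the pairs below describe.

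By annotation 348 members were lncRNA genes and 5 (EMC3-AS1, SLC44A3-AS1, SRP54-AS1, SVIL-AS1 and TP73-AS1) were transcribed pseudogenes. The partner was in the table for 350 members, and HOXB-AS1, HOXC-AS1 and KRTAP5-AS1 are named after a cluster or family with no gene of exactly that name. On GRCh37, 147 pairs were divergent, which here means opposite strands with 5′ ends at most 2000 bases apart, 197 overlapped in another way, and 6 lay on opposite strands without overlap. Exon bases were shared with the partner in 111 of the divergent and 155 of the other overlapping pairs. Over all members, 294 of 353 shared exon bases with some gene, with a median of 10.25% of their exon bases, and in 29 the share was over 50%. Whether reads were counted by strand is not given in the sources used here, and without strand, reads from a gene and from its antisense partner cannot be told apart where exons overlap. The extent of the overlap is given beside the named pairs below.

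Promoter windows of 300 bases, from 250 before to 50 after the RefSeq start on GRCh38.p14, were found for 275 of the 353 members and 289 partners. Those of the members held a median of 64.3% G and C and 24 CpG dinucleotides, close to the partners (65.3% and 25) and above all 27305 promoters in the table (58.3% and 14). The GC box, GGGCGG on either strand, was in 59.3% of the members' windows, 65.7% of the partners' and 44.6% of all, and TATAAA, the TATA box, was in 6.55%, 6.92% and 12%. The CCAAT box, on either strand, was in 31.6% of members' windows, 32.2% of partners' and 35.7% of all, and the E-box CACGTG was in 10.2% of members' windows, 7.96% of partners' and 7.43% of all. The E2F site TTTCCCGC was in 2.55%, 1.73% and 1.66% of them, and the cyclic AMP response element TGACGTCA in 5.45%, 4.15% and 1.98%. Windows of the 121 divergent members (60.3% with a GC box) and of the 148 other overlapping ones (58.8%) had like shares. The windows of 3 pairs follow, each 5′ to 3′ on its own strand, because the first pair fell together, the second rose together and the third moved apart in the results below. Capitals mark the GC box, the CCAAT box, the E-box or the CHR element TTTGAA, read on either strand.
TMPO-AS1 promoter, chr12:98516177-98516476, minus strand: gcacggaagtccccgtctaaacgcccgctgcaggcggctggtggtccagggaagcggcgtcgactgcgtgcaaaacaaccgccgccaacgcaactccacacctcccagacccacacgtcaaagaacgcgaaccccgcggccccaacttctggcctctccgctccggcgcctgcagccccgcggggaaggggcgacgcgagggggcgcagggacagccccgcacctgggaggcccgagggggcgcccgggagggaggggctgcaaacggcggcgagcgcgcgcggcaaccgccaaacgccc
TMPO promoter, chr12:98515323-98515622, plus strand: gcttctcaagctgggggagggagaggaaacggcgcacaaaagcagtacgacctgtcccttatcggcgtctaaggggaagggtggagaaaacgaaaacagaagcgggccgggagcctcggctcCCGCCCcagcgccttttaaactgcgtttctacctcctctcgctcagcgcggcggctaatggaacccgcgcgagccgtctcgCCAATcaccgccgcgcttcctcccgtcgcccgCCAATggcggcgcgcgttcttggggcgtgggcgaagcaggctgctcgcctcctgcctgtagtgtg
VIM-AS1 promoter, chr10:17229936-17230235, minus strand: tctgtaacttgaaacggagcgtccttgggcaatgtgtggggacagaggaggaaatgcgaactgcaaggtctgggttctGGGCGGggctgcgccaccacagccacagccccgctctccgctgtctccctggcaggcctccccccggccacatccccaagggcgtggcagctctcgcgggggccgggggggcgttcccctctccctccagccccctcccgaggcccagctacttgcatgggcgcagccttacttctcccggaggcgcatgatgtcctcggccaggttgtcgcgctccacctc
VIM promoter, chr10:17227991-17228290, plus strand: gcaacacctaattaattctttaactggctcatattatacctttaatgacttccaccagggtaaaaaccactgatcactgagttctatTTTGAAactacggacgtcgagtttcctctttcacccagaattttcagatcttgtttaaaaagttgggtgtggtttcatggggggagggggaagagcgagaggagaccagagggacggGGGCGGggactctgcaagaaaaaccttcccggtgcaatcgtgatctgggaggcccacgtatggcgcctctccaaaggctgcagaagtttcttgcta
OIP5-AS1 promoter, chr15:41283740-41284039, plus strand: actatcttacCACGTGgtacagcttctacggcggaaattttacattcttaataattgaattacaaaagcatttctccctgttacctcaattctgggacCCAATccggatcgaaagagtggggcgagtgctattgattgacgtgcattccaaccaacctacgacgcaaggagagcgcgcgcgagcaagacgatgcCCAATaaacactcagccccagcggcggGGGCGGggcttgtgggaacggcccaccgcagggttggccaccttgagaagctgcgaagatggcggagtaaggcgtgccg
OIP5 promoter, chr15:41332542-41332841, minus strand: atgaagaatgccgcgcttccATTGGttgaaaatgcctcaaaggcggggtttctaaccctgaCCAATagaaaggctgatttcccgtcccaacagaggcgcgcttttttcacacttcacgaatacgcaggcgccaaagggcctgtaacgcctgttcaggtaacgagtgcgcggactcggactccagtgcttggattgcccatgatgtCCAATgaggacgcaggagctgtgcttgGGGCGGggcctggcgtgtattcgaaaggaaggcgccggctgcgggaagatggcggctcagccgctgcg
The TMPO-AS1 window held 39 CpG dinucleotides and none of the searched motifs, and the TMPO window held 34, with 1 GC box and 2 CCAAT boxes. The VIM-AS1 and VIM windows held 1 GC box each, with 20 and 10 CpG dinucleotides. The OIP5-AS1 window had 1 GC box, 2 CCAAT boxes and 1 E-box, and the OIP5 window 1 GC box and 3 CCAAT boxes. The CHR element, found at many cell cycle genes, was once in the VIM window, in 8.73% of members' windows, in 9% of partners' and in 15.4% of all. A match describes the letters of the window and not a bound site.

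After 72 h most members that changed were higher with drug. With S + D, 146 of 353 members (41.4%) rose and 68 (19.3%) fell at an adjusted p under 0.01 (edgeR quasi-likelihood test with Benjamini-Hochberg adjustment over all genes), where 27% of all 16682 genes tested were called higher and 27.9% lower. With Sal, 142 (40.2%) rose and 58 (16.4%) fell, against 26.3% and 26.8% of all genes. With Das, 68 (19.3%) rose and 12 (3.4%) fell, against 10.5% and 9.36%. The share of members called higher was thus above that of all genes in each comparison at 72 h, and the share called lower was below it. These counts include the 60 members at the floor in treated libraries only, and the genes tested as a whole had no such floor. Among the 169 members at the floor in all 32 libraries, 43.2% rose and 12.4% fell with S + D. The shares of these 169 were 39.1% and 12.4% with Sal, and 26% and 0.592% with Das. Members that fell below the floor with drug cannot be among these 169, so the selection itself lowers the share of falls. Of the 184 other members 39.7% rose and 25.5% fell with S + D, 41.3% and 20.1% with Sal, and 13% and 5.98% with Das. The median log2 fold change over the members was 0.41 with S + D, 0.39 with Sal and 0.26 with Das, and over all genes tested it was 0.01, 0.00 and 0.02. When an absolute log2 fold change above 1.5 was also required, 75 (21.2%) rose and 30 (8.5%) fell with S + D, where 9.69% and 10.5% of all genes did. With Sal 71 (20.1%) and 26 (7.37%) did, against 9.23% and 9.45%, and with Das 14 (3.97%) and 4 (1.13%), against 2.69% and 2.34%.

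Other noncoding genes had counts in the same direction. Among 182 other genes named as antisense, divergent, intronic or overlapping transcripts (suffixes -AS2, -AS3, -DT, -IT1 or -OT1) at the same floor, 74 rose and 23 fell with S + D at 72 h, 76 and 19 with Sal, and 28 and 6 with Das. Of the 1711 other lncRNA genes tested, 32.9% were called higher and 14% lower with S + D, and of protein-coding genes 26.2% and 31.1%. The partners had no such excess of rises. Of 314 partners tested at 72 h, 80 rose and 97 fell with S + D, 76 and 97 with Sal, and 38 and 36 with Das. Levels are scaled by the library total and a factor for each library (TMM), so relative amounts of RNA are compared and not RNA per cell. In a bulk culture fewer cells of a type and less RNA per cell cannot be told apart.

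**Figure D1:**
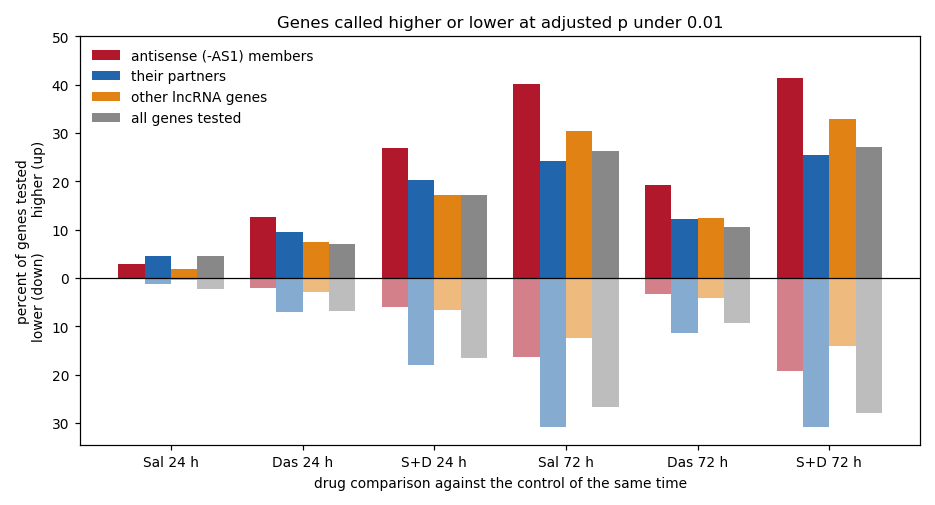
Percent of tested members, partners, other lncRNA genes and all genes called higher or lower at an adjusted p under 0.01, by comparison with the control of the same time point. With S + D at 72 h 41.4% of members were called higher and 19.3% lower, against 27% and 27.9% of all genes.

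The response at 24 h was smaller. With S + D 94 of 350 members tested rose and 21 fell, where 17.1% of all 16357 genes were called higher and 16.5% lower. With Das 44 rose and 7 fell (6.99% and 6.88% of all genes), and with Sal 10 rose and 1, FOXP4-AS1, fell (4.55% and 2.23%). These counts depended on the spread between the unnumbered and the numbered libraries. With the replicate number as a block they became 130 and 36 with S + D (25.7% and 24.5% of all genes), 85 and 10 with Das (13.4% and 14%), and 27 and 7 with Sal (9.97% and 8.71%). In the 3 numbered libraries of each condition alone, 145 of 345 rose and 40 fell with S + D (28.7% and 29.4% of all genes), 103 and 17 with Das (20.6% and 18.7%), and 31 and 7 with Sal (12.7% and 10.9%). With Sal at 24 h the members called higher were thus a smaller share than in all genes in each of these fits. At 72 h the numbered libraries gave 148 and 65 with S + D (28.4% and 29.5% of all genes), 147 and 61 with Sal (27.8% and 29.6%), and 69 and 15 of 353 with Das (1844 and 1898 of 16527 genes).

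Without drug few members were called between the time points. From 24 to 72 h in the control, 2 members (SMIM2-AS1 and ZNF710-AS1) rose and 4 (CCDC183-AS1, EMC3-AS1, ERCC6L2-AS1 and PCF11-AS1) fell, where 2% of all 17227 genes were called higher and 0.76% lower. These 6 were named after their values were seen, and in the numbered libraries alone 12 rose and 20 fell, where 7.02% of all genes were called higher and 4.01% lower.

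In all, 254 members (72%) changed in at least 1 of the 6 drug comparisons and 99 in none, and of all genes tested 67.5% changed in at least 1. At 72 h 61 members (17.3%, against 8.45% of all genes) rose with each of Sal, Das and S + D, and 8 (2.27%, against 7.55%) fell with each. These counts include the 60 members at the floor in treated libraries only, and the genes tested as a whole had no such floor. The comparisons also share their control libraries, so the overlap is a count only. In total 7 of the 353 members (1.98%, close to the 1.56% of all genes) rose in all 6 comparisons, which were GP6-AS1, MATN1-AS1, MZF1-AS1, OIP5-AS1, RUNDC3A-AS1, TDRKH-AS1 and TMEM92-AS1, and 0 fell in all 6. Of the 7 that rose, GP6-AS1 reached the floor in treated libraries only, 22 of them. Changes in both directions were called for 5 members (1.42%, against 1.47% of all genes), named after their values were seen. PAPLN-AS1 and PITX1-AS1 rose with Das at 24 h and fell with Sal and S + D at 72 h. The call for the rise of PAPLN-AS1 was lost in 6 fits that each left out 1 library (adjusted p up to 0.0266). TNS2-AS1 rose with Das and S + D at 24 h and fell with Sal and S + D at 72 h. SNAI3-AS1 rose with each treatment at 24 h and with Sal at 72 h, and fell with S + D at 72 h. MCPH1-AS1 fell with Das at both times and rose with Sal at 72 h.

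In the Das comparison of 72 h the library nearest to the controls was replicate 3 for 49 of the 68 members that rose and for 6 of the 12 that fell. Without that library 85 members rose and 17 fell, without Das replicate 1 or Das replicate 2 46 rose and 5 fell in each case, and without control replicate 1 46 rose and 7 fell. The shares of all genes called in these fits are not given, so these counts are no result about the members in particular.

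Most members were of low abundance. Their mean over the 32 libraries had a median of 2.5 CPM and ran from 0.4 to 222 CPM, 39 were over 10 CPM and 4 over 50. The members that rose with S + D at 72 h had a median of 2.98 CPM and those that fell 1.71 CPM. The partners had a median of 34.5 CPM. The most abundant members were AFAP1-AS1 (18.2 CPM per kb of exon), OIP5-AS1 (6.17), THAP9-AS1 (19.7), FGD5-AS1 (12.8) and TMEM147-AS1 (6.82).

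AFAP1-AS1 overlaps AFAP1, which codes for an actin filament-associated protein, and shares 42.2% of its exon bases with it. At 72 h it was at 157, 154, 152 and 152 CPM in the control, 264, 260, 188 and 183 with Das, 198, 196, 208 and 196 with Sal, and 126, 173, 177 and 140 with S + D (numbered replicates 1 to 3, then the unnumbered library, here and below). The Das and Sal libraries lay above every control, and the S + D libraries lay on both sides. It rose with Das, by a log2 fold change of 0.53 (SE 0.13, adjusted p = 0.00537), a call that was lost in 6 of the 8 fits without 1 library, where the adjusted p reached 0.0215. The values were 0.36 with Sal (adjusted p = 0.0254) and -0.01 with S + D (adjusted p = 0.928). AFAP1 fell with all 3 treatments, from 92.8 ± 9.2 CPM (SD, n = 4) to 30.9 ± 1.6 with Sal (log2 fold change -1.60, adjusted p = 2.28e-07), to 38.6 ± 4.3 with S + D (-1.28, adjusted p = 1.74e-06) and to 61.4 ± 16 with Das (-0.60, adjusted p = 0.00656, or 0.0105 in the numbered libraries alone).

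OIP5-AS1 (also a member of the list of often studied antisense RNAs) lies on GRCh37 at chr15:41576156-41614590 on the plus strand, and 759 of its 22370 exon bases are shared with OIP5, a subunit of the Mis18 complex that loads the centromeric histone CENP-A. At 24 h it was at 74.6, 67.1, 64.3 and 73.5 CPM in the control, 94.5, 110, 98.4 and 98.9 with Sal, 103, 117, 126 and 88.1 under Das, and 160, 156, 161 and 148 with S + D. Every treated library was above every control, and the S + D libraries were above those of both single drugs. It rose by 1.20 on the log2 scale with S + D (SE 0.10, adjusted p = 1.79e-07), by 0.65 with Das (adjusted p = 0.000185) and by 0.51 with Sal (adjusted p = 0.00299, up to 0.0127 without control replicate 2 or 3). At 72 h it went from 96.9 ± 10 CPM (SD, n = 4) to 205 ± 44 with Sal, 169 ± 35 under Das and 197 ± 21 with S + D, with log2 fold changes of 1.07, 0.79 and 1.01 and adjusted p of 2.33e-05, 0.00147 and 3.82e-05.

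OIP5 went the other way. At 72 h it was at 15.3, 13.9, 13.8 and 19.2 CPM in the control, 2.7, 2.36, 2.23 and 6.1 with Sal, 4.29, 5.22, 15.5 and 11 under Das, and 1.22, 0.786, 1.1 and 2.47 with S + D. The Sal and S + D libraries were below every control and Das replicate 3 was among them. OIP5 fell with S + D (log2 fold change -3.49, SE 0.45, adjusted p = 2.77e-06) and with Sal (-2.22, adjusted p = 0.000153), and with Das the value was -0.79 (adjusted p = 0.129), or -1.16 (adjusted p = 0.0234) without replicate 3. The log2 ratio of OIP5-AS1 to OIP5 counts rose by 4.61 with S + D and by 3.39 with Sal at 72 h, and by 2.66 with S + D at 24 h, each with an exact two-sided permutation p of 0.0286, the smallest that 4 libraries against 4 allow.

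THAP9-AS1 and TMEM147-AS1 lie on the strand opposite to their partners, with 5′ ends 276 and 429 bases from the partner's. Each overlaps its partner, with 199 and 93 exon bases in common, and both members rose at 72 h. THAP9-AS1, whose partner codes for a protein related to a transposase, went from 54.6 ± 6.3 CPM (SD, n = 4) to 111 ± 19 with Sal, 109 ± 18 under Das and 120 ± 12 with S + D (log2 fold changes 1.00, 0.99 and 1.12, adjusted p = 1.17e-05, 9.05e-05 and 3.19e-06). THAP9 rose with Sal (0.51, adjusted p = 0.00341), and its value with S + D was 0.39 (adjusted p = 0.0173). The Sal call of THAP9 was lost in 3 fits without 1 library (adjusted p up to 0.0172). TMEM147-AS1 rose by 1.23 with Sal, 0.75 under Das and 1.39 with S + D on the log2 scale (adjusted p = 3.23e-05, 0.00692 and 8.68e-06), while TMEM147, a membrane protein gene, had values of -0.24, -0.22 and 0.14, none of them past the threshold. The Das call of TMEM147-AS1 was lost in 6 fits without 1 library, where the adjusted p reached 0.0276. FGD5-AS1, with 176 exon bases in common with FGD5, passed the threshold in no drug comparison, although in the numbered libraries alone the values at 24 h were 0.23 with Das and 0.21 with S + D on the log2 scale (adjusted p = 0.000736 and 0.00107). Its group means lay between 69.7 and 90.8 CPM. Its partner FGD5, an exchange factor for the GTPase CDC42, fell with S + D at 72 h (log2 fold change -1.16, SE 0.23, adjusted p = 0.000293).

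**Figure D2:**
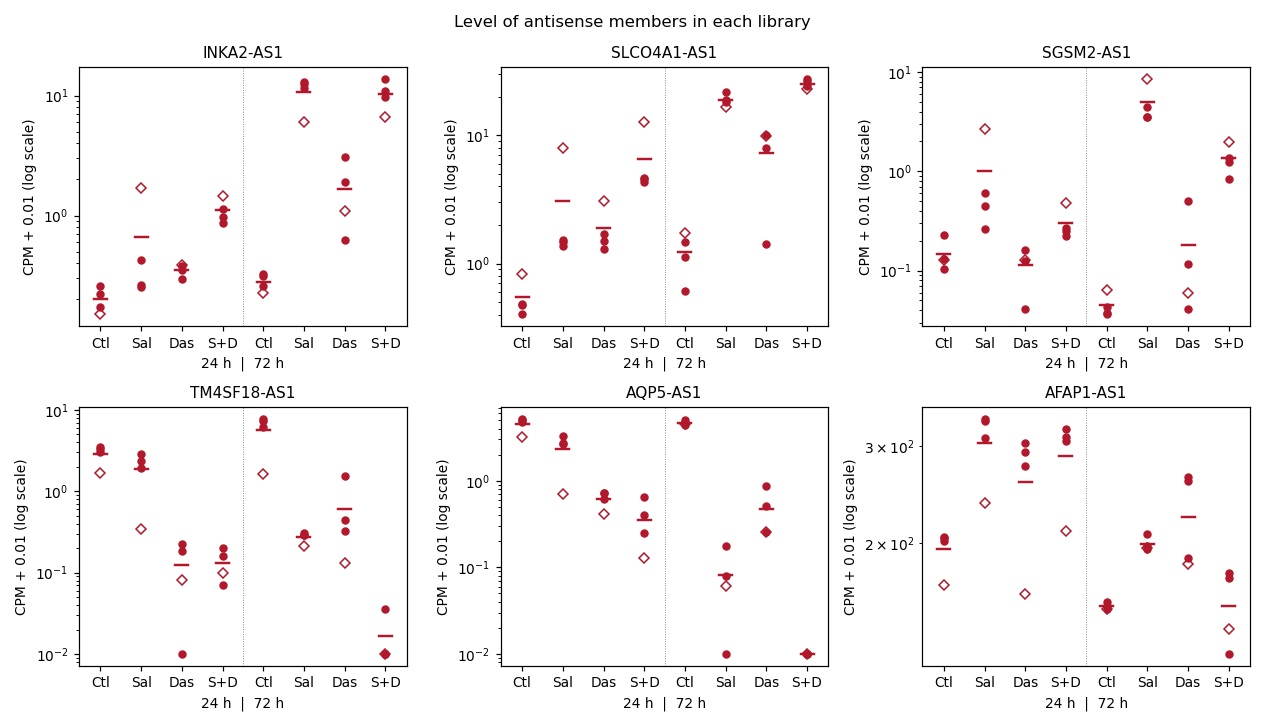
Level of 6 named members in each library (CPM plus 0.01, log axis), by treatment and time point, with numbered libraries as filled points, the unnumbered one as an open diamond and the group mean as a bar. INKA2-AS1 lay between 6.62 and 13.7 CPM in the S + D libraries of 72 h and between 0.215 and 0.317 CPM in their controls.

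The members with the largest rises started from very low levels in the control. TMEM92-AS1 lies at chr17:48358938-48365216 on the minus strand and shares no exon bases with TMEM92, a transmembrane protein gene whose 5′ end is 16449 bases away. At 72 h it was at 0.569, 0.635, 0.973 and 1.27 CPM in the control, 13.2, 14.7, 14 and 13.9 with Sal, 8.52, 7.26, 0.964 and 4.43 under Das, and 11.2, 13.7, 12.5 and 15 with S + D. Sal and S + D did not overlap the control, and Das replicate 3 fell inside it. It rose by 3.98 with Sal (SE 0.45, adjusted p = 8.13e-07), 2.59 with Das (SE 0.44, adjusted p = 0.000296) and 3.90 with S + D (SE 0.45, adjusted p = 8.62e-07) on the log2 scale, and it was also among those that rose with each treatment at 24 h, by 2.59, 1.94 and 3.53. Without Das replicate 3 the rise with Das at 72 h was 2.96 (adjusted p = 1.65e-07).

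INKA2-AS1 shares 68.1% of its exon bases with annotated genes, though none with INKA2, an inhibitor of the kinase PAK4, so its counts are uncertain. It reached the floor of 1 CPM in 15 libraries, all treated. At 72 h it was at 0.301, 0.317, 0.25 and 0.215 CPM in the control, 12.4, 13, 11.6 and 6 with Sal, 3.08, 1.89, 0.622 and 1.08 under Das, and 9.64, 10.9, 13.7 and 6.62 with S + D. All 12 treated libraries were above the controls. It rose by 5.27, 2.59 and 5.20 on the log2 scale (adjusted p = 5.7e-08, 0.00042 and 4.8e-08 with Sal, Das and S + D). INKA2 rose with them, from 13.6 ± 1.4 CPM (SD, n = 4) to 70.9 ± 13, 37.0 ± 7.9 and 60.1 ± 4.6.

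SGSM2-AS1, with 40.4% of its exon bases shared, had 5 counts in the 4 controls of 72 h. It reached the floor in 8 libraries, all treated (4 with Sal and 3 with S + D at 72 h and 1 with Sal at 24 h), so it became a member through conditions in which it was high. Its levels were 0.0335, 0.0265, 0.0278 and 0.0539 CPM in the control, 4.48, 3.55, 3.51 and 8.46 with Sal and 0.832, 1.23, 1.34 and 1.96 with S + D. Both groups lay wholly above the control, and the Sal libraries above the S + D libraries. The summed counts were 149 times those of the control with Sal (95% exact interval 63.4 to 460, counting error only) and 38.2 times with S + D (16.1 to 119), and the rises had adjusted p of 1.33e-07 and 5.16e-06. With Das the ratio was 4.65 (1.72 to 15.7), with an adjusted p of 0.0747. SGSM2, a modulator of small G proteins, fell from 85.6 ± 14 CPM (SD, n = 4) to 25.2 ± 6.2 with Sal and 48.3 ± 4.7 with S + D (log2 fold changes -1.78 and -0.84, adjusted p = 4.71e-07 and 0.000665).

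SLCO4A1-AS1 and MATN1-AS1 rose with all 3 treatments at 72 h. SLCO4A1-AS1 was at 0.603, 1.11, 1.47 and 1.72 CPM in the control, 21.7, 18.8, 18.1 and 16.7 with Sal, 10, 7.94, 1.4 and 9.82 under Das, and 27.4, 26.5, 24.5 and 23 with S + D. Das replicate 3 again lay within the control range, and without it the rise with Das was 2.91 on the log2 scale (adjusted p = 6.69e-08). The rises were 3.90, 2.55 and 4.33 on the log2 scale (adjusted p = 6.56e-07, 0.000232 and 2.14e-07), while SLCO4A1, an organic anion transporter gene, had values of 0.58, -0.73 and 0.86, none past the threshold, though in the numbered libraries alone the last were -1.01 and 0.90 (adjusted p = 0.00739 and 0.0047). The member shares 346 exon bases (22.6%) with SLCO4A1. MATN1-AS1 shares 836 exon bases (20.8%) with MATN1, which codes for a cartilage matrix protein. MATN1-AS1 rose by 3.63, 2.76 and 3.35 on the log2 scale with Sal, Das and S + D (adjusted p = 3.76e-07, 4.47e-05 and 6.74e-07). MATN1 was at most 1.01 CPM in every library, and its summed counts at 72 h were 23.8 times (95% exact interval 7.78 to 118), 7.75 times (2.33 to 40.5) and 14.6 times (4.66 to 73.4) those of the control, which held 3 counts. Its adjusted p were 3.64e-05, 0.0149 (0.000659 without Das replicate 3) and 0.00032.

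IGSF22-AS1 and SAPCD1-AS1 were low and rose at 24 h, and both reached the floor in treated libraries only, 4 and 13 of them. IGSF22-AS1 had 6 counts in the 4 controls of 24 h, 47 under Das and 69 with S + D, which are ratios of 8.29 (95% exact interval 3.54 to 23.7) and 12.5 (5.48 to 35.3) after scaling. The adjusted p were 0.00472 and 0.000391, and IGSF22, with which it shares 236 exon bases, had 0 counts in all 32 libraries. The Das call of IGSF22-AS1 was lost in 6 fits without 1 library (adjusted p up to 0.0196). SAPCD1-AS1, with 89.2% of its exon bases shared with annotated genes, was at 0.393, 0.494, 0.314 and 0.494 CPM in the control of 24 h and 0.981, 1.54, 1.4 and 1.77 with Das, so the groups did not overlap, and it rose by 1.75 on the log2 scale (SE 0.25, adjusted p = 9.32e-05).

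The largest falls took AQP5-AS1 and TM4SF18-AS1 to the floor of detection. AQP5-AS1 starts 1052 bases from AQP5, an aquaporin water channel gene, with no exon bases in common. At 72 h it was at 5.02, 4.42, 4.59 and 4.55 CPM in the control, 0.07, 0.166, 0 and 0.0508 with Sal, 0.249, 0.5, 0.87 and 0.245 under Das, and 0 in all 4 S + D libraries. Every treated library lay below every control. With 651 counts in the controls and 0 with S + D, it was at least 53.4-fold lower, taking 3 counts per library as the limit. It fell with Sal (log2 fold change -5.97, SE 0.52, adjusted p = 2.42e-07) and Das (-3.33, SE 0.40, adjusted p = 4.11e-05), and at 24 h with Das (-2.88, adjusted p = 0.000155) and S + D (-3.68, adjusted p = 1.01e-05). AQP5 was also at 0 in all 4 S + D libraries of 72 h, at least 11.2-fold lower than its 0.976 ± 0.25 CPM (SD, n = 4) in the control, and fell with Sal (-4.27, adjusted p = 8.96e-05) and Das (-2.37, adjusted p = 0.00532, or 0.0167 in the numbered libraries alone). The AQP5 call with Das was lost in 6 fits without 1 library (adjusted p up to 0.0208).

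TM4SF18-AS1 was at 7.7, 7.3, 6.2 and 1.64 CPM in the control of 72 h, 0.28, 0.299, 0.283 and 0.203 with Sal, 0.311, 0.429, 1.52 and 0.122 under Das, and 0, 0.0262, 0 and 0 with S + D. The unnumbered control was the lowest control and still above all treated libraries. The single S + D count against 790 control counts gives a ratio of 778 (95% exact interval 139 to 3.08e+04). It fell with Sal (log2 fold change -4.43, adjusted p = 6.87e-06) and Das (-3.28, adjusted p = 0.000294), and at 24 h with Das (-4.54, adjusted p = 8.04e-05) and S + D (-4.48, adjusted p = 3.14e-05). TM4SF18, a tetraspan membrane protein gene, was at or under 0.28 CPM in every library and was not tested, and the pair shares 124 exon bases.

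DNMBP-AS1, PAPLN-AS1, RASAL2-AS1 and NR2F1-AS1 also fell strongly in some comparison. DNMBP-AS1 went from 1.68 ± 0.29 CPM (SD, n = 4) to 0.0855 ± 0.052 with S + D at 72 h (log2 fold change -4.24, SE 0.46, adjusted p = 4.42e-07), and DNMBP, an exchange factor for CDC42 with which it shares 789 exon bases (26.3%), fell by 0.53 on the log2 scale (adjusted p = 0.000641). PAPLN-AS1 fell with Sal at 72 h (-4.40, SE 0.55, adjusted p = 2.69e-06) together with PAPLN, an extracellular matrix gene with 177 exon bases in common (-1.96, adjusted p = 1.17e-06), and both had risen with Das at 24 h (1.18 and 0.90, adjusted p = 0.00703 and 0.0031). Those 24 h calls were lost in 6 and 4 fits without 1 library (adjusted p up to 0.0266 and 0.0146). RASAL2-AS1, 120 bases from the 5′ end of the RasGAP gene RASAL2 and without exon bases in common, fell with each treatment at 72 h, most with S + D (-2.53, SE 0.38, adjusted p = 1.65e-05). NR2F1-AS1, which shares 158 exon bases with its partner, an orphan nuclear receptor gene, fell at 24 h with Das (-2.32, adjusted p = 0.000314) and S + D (-2.27, adjusted p = 0.000147), and at 72 h its value with S + D was 0.28 (adjusted p = 0.64).

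The pairs were then compared within each library. The ratio is log2 of the member's count plus 0.5 over the partner's count plus 0.5, which needs no scaling between libraries, and a pair counted as moved when all 4 treated ratios lay beyond all 4 control ratios and the means differed by more than 1. With S + D at 72 h 148 of 314 pairs (47.1%) moved, 106 up and 42 down, where 40.8% of 3734 other neighbouring gene pairs on opposite strands moved. With Sal 126 (40.1%) moved, 96 up and 30 down, against 38.6%, a share close to the background. With Das 51 (16.2%) moved, 39 up and 12 down, against 11.9%. Leaving out 1 library in turn gave 44 to 81 pairs with Das, the 81 without Das replicate 3. Groups with fewer libraries lie apart more easily, and no share of other pairs is given for these counts, so the 81 cannot be set against the 11.9%. At 24 h 69 of 312 pairs (22.1%) moved with S + D, 29 (9.29%) with Das and 12 (3.85%) with Sal, against 19.4%, 8.13% and 5.04% of 3652 other pairs. The other pairs were not matched to these in abundance.

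**Figure D3:**
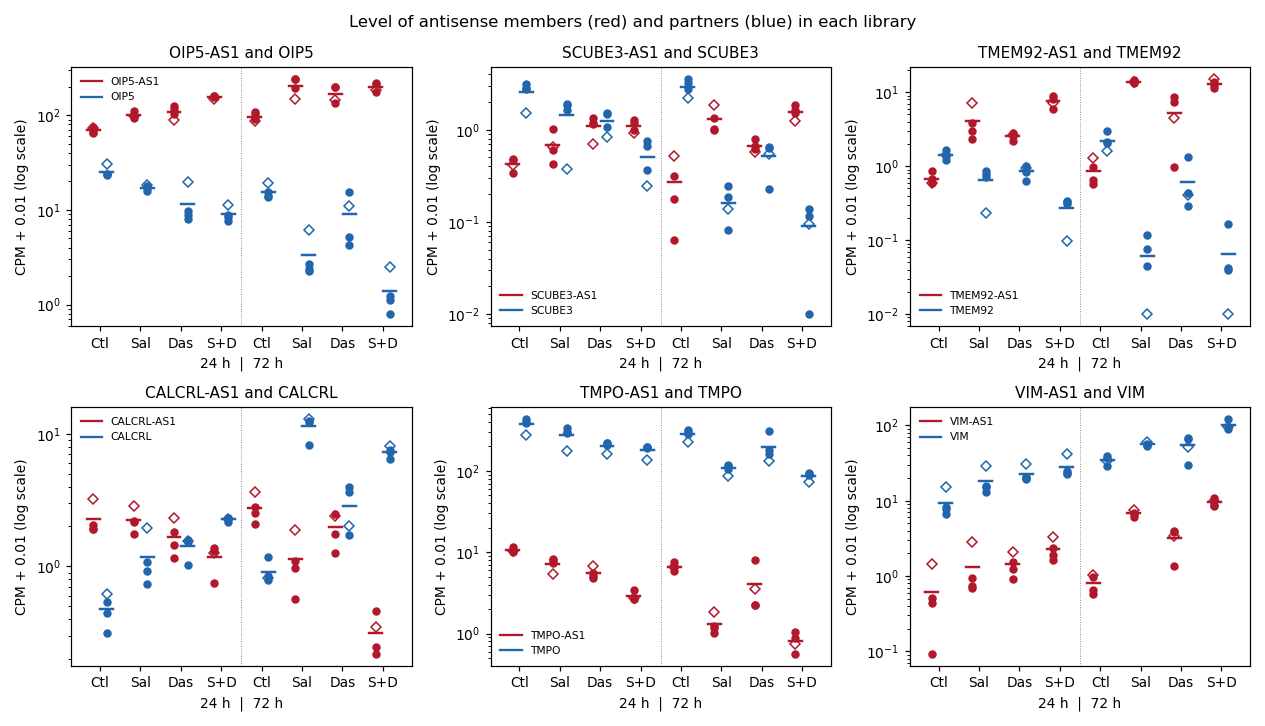
Levels of 6 members (red) and of their partners (blue) in each library of 24 and 72 h (CPM plus 0.01, log axis), with numbered libraries as filled points, the unnumbered one as an open diamond and the group mean as a bar. OIP5-AS1 was higher and OIP5 lower in the S + D libraries of 72 h than in the controls, with group means of 197 and 1.39 CPM against 96.9 and 15.6 CPM.

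Member and partner were more often called in 1 direction than in opposite ones. With S + D at 72 h both rose in 49 pairs and both fell in 31, 25.5% of 314 together, against 18.4% of other opposite-strand neighbours. They were called in opposite directions in 39 pairs (12.4%, against 11.2%), of which the member rose in 29. With Sal both rose in 48 and both fell in 30 (24.8%, against 18.5%), and 40 pairs went apart (12.7%, against 10.3%), 32 with the member higher. With Das 14 rose and 6 fell together (6.37%, against 2.38%), and 3 pairs went apart (0.955%, against 0.75%), each with the member higher. Those 3 were AFAP1-AS1, TMEM92-AS1 and CBR3-AS1, the last named after its values were seen. CBR3-AS1 rose by 1.01 and CBR3, a carbonyl reductase gene with 710 exon bases in common, fell by 1.02 on the log2 scale (adjusted p = 0.000308 and 0.0019).

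Divergent and other overlapping pairs differed in these counts. Of 143 divergent pairs tested with S + D at 72 h, 45 (31.5%) were called in 1 direction and 9 (6.29%) in opposite directions, and of 166 other overlapping pairs 35 (21.1%) and 29 (17.5%). With Sal the shares were 29.4% and 5.59% of divergent pairs and 20.5% and 18.7% of the others. The ratio moved in 60 (42%) of the divergent and 85 (51.2%) of the other overlapping pairs with S + D. These are counts over pairs that share control libraries, and the difference between arrangements was not tested. The other opposite-strand neighbours were not split by arrangement. With S + D 18.4% of them were called in 1 direction, 11.2% in opposite directions, and 40.8% moved in ratio. Of the single members, 54 (36.7%) rose and 31 (21.1%) fell among 147 divergent ones with S + D. Among 197 others 89 (45.2%) rose and 37 (18.8%) fell, where 27% of all genes were called higher and 27.9% lower. Both sets include members at the floor in treated libraries only.

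**Figure D4:**
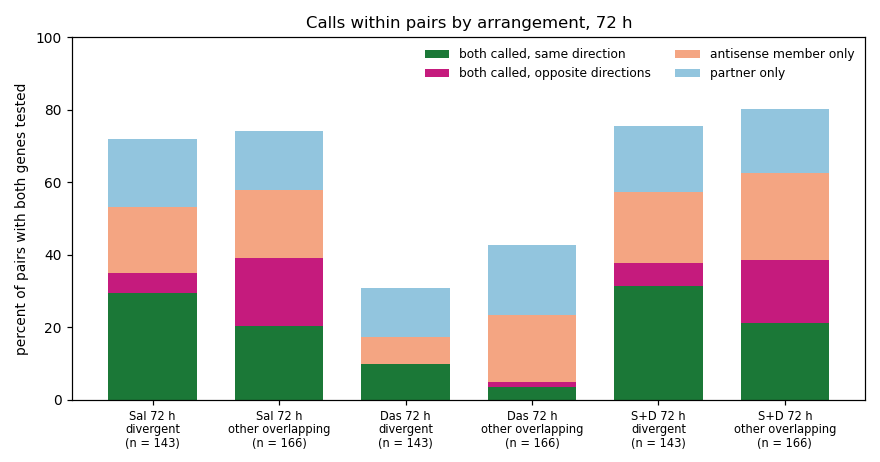
Percent of pairs with both genes tested by the calls of the member and its partner at 72 h, as stacked bars for divergent and for other overlapping pairs of each comparison. With S + D 45 of 143 divergent pairs were called in 1 direction and 9 in opposite directions, against 35 and 29 of 166 other overlapping pairs.

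Pairs moved both with and without shared exon bases. Among the 72 pairs without exon bases in common, 24 (33.3%) were called in 1 direction and 12 (16.7%) in opposite directions with S + D at 72 h, and 37 moved in ratio. Of the 242 pairs with shared exon bases, 111 moved. Among the 59 members without exon bases shared with any gene, 24 (40.7%) rose and 16 (27.1%) fell with S + D, 27 (45.8%) and 15 (25.4%) with Sal, and 13 (22%) and 4 (6.78%) with Das. The shares that fell with S + D and Sal were close to those of all genes (27.9% and 26.8%), while the shares that rose were above them (27% and 26.3%). With Das 10.5% of all genes rose and 9.36% fell. The 59 include members at the floor in treated libraries only, such as C21orf62-AS1 and CYYR1-AS1. Their higher share of rises is therefore no support for a direction.

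**Figure D5:**
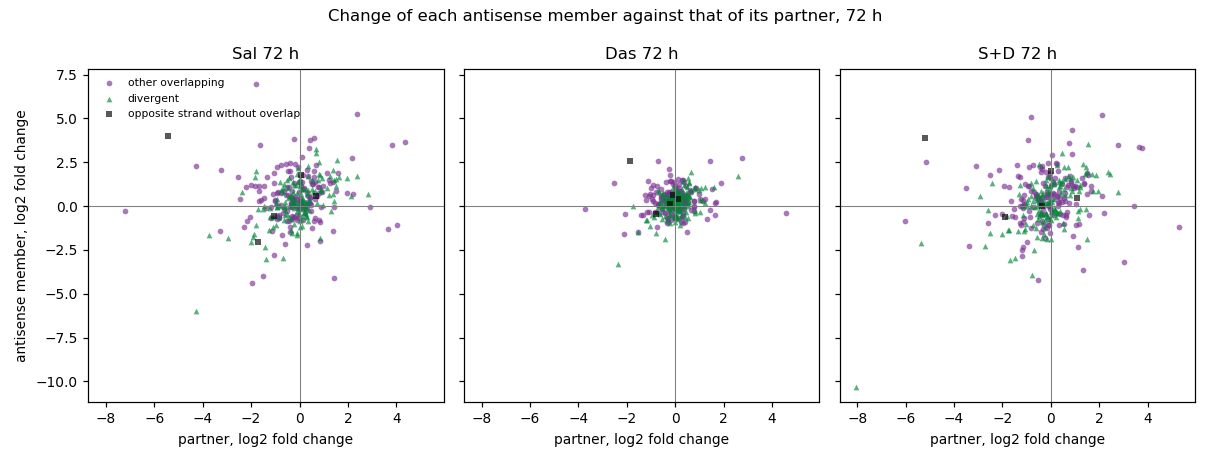
log2 fold change of each member against that of its partner at 72 h, 1 point for each pair, by arrangement, in 1 panel for each treatment. TMEM92-AS1 (3.90 against -5.18 with S + D) and CALCRL-AS1 (-3.18 against 3.01) lay at opposite corners, and TMPO-AS1 (-3.08 against -1.71) among the pairs that fell together, and the lowest point with S + D, AQP5-AS1 and AQP5, has 0 counts with S + D so that its place depends on the fit.

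Pairs that moved apart with the member higher were led by TMEM92-AS1. TMEM92 was at 2.98, 2.04, 2.11 and 1.62 CPM in the control of 72 h, 0.035, 0.0664, 0.106 and 0 with Sal, 0.28, 0.429, 1.31 and 0.392 under Das, and 0.032, 0.157, 0.0298 and 0 with S + D. All 12 treated libraries were below the controls. It fell with S + D (log2 fold change -5.18, SE 0.64, adjusted p = 2.11e-06), with Sal (-5.41, adjusted p = 2.41e-06) and with Das (-1.86, SE 0.48, adjusted p = 0.00654, a call lost in 6 of the 8 fits without 1 library, and -2.55, adjusted p = 0.000367, without Das replicate 3). The pair was chosen for its ratio, which rose by 9.47 with S + D, 9.46 with Sal and 4.34 with Das, and these are given as values without a test.

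SCUBE3-AS1 lies within SCUBE3, a gene for a secreted and cell-surface glycoprotein, without sharing exon bases with it, and reached the floor in 13 libraries, all treated. It was at 0.167, 0.0529, 0.306 and 0.512 CPM in the control of 72 h and 1.63, 1.83, 1.52 and 1.24 with S + D, without overlap, and rose by 2.54 on the log2 scale (SE 0.40, adjusted p = 2.65e-05). With Sal it rose by 2.27 (adjusted p = 9.21e-05), and with Das the value was 1.29 (adjusted p = 0.0242), or 1.94 (adjusted p = 0.00274) in the numbered libraries alone. SCUBE3 fell from 2.91 ± 0.57 CPM (SD, n = 4) to 0.0793 ± 0.056 with S + D, 0.151 ± 0.069 with Sal and 0.505 ± 0.2 with Das (log2 fold changes -5.15, -4.26 and -2.53, adjusted p = 6.72e-08, 2.52e-07 and 7.69e-05). The ratio rose by 8.22 with S + D.

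In a few pairs the antisense gene fell and the partner rose. CALCRL-AS1 was at 2.51, 2.78, 2.09 and 3.64 CPM in the control of 72 h and 0.448, 0.236, 0.209 and 0.337 with S + D, and CALCRL, the receptor for adrenomedullin and calcitonin gene-related peptide, was at 0.837, 1.16, 0.778 and 0.808 CPM and 6.44, 7.52, 7.28 and 8.08. Neither gene's groups overlapped. CALCRL-AS1 fell by 3.18 on the log2 scale (SE 0.37, adjusted p = 1.02e-06) and CALCRL rose by 3.01 (SE 0.26, adjusted p = 5.52e-08). With Sal the values were -1.29 and 3.65 (adjusted p = 0.00209 and 1.52e-08), and the pair shares no exon bases.

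ENTPD1-AS1 and NAPA-AS1 showed the same arrangement of directions. ENTPD1-AS1 fell from 8.12 ± 0.99 CPM (SD, n = 4) to 3.56 ± 0.97 with S + D (log2 fold change -1.20, SE 0.21, adjusted p = 9.75e-05), and ENTPD1, the ectonucleotidase CD39, rose from 0.0881 ± 0.047 to 3.54 ± 0.69 CPM (5.29, SE 0.63, adjusted p = 1.39e-06). NAPA-AS1 fell from 1.68 ± 0.25 to 0.132 ± 0.027 CPM (-3.66, SE 0.43, adjusted p = 1.22e-06), and NAPA, a protein that takes apart SNARE complexes, rose from 132 ± 7.3 to 336 ± 27 CPM (1.33, SE 0.16, adjusted p = 1.22e-06). The ratios fell by 6.47 and 4.89. The pairs share 5742 exon bases (21.5% of those of ENTPD1-AS1) and 988 (36.6% of those of NAPA-AS1), where reads of the 2 genes cannot be told apart without strand. CDKN2B-AS1 fell with S + D (-1.08, SE 0.19, adjusted p = 0.000102) and with Sal (-0.82, adjusted p = 0.00119), and CDKN2B, an inhibitor of the cyclin-dependent kinases CDK4 and CDK6, rose (1.04 and 0.79, adjusted p = 6.64e-05 and 0.000812). CDKN2B-AS1 and CDKN2B share no exon bases.

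Among pairs that moved together, TMPO-AS1 and TMPO have 5′ ends 843 bases apart and share 646 exon bases. TMPO codes for lamina-associated polypeptides of the nuclear envelope. TMPO-AS1 was at 7.5, 6.51, 5.81 and 6.63 CPM in the control of 72 h, 1.16, 1.23, 0.992 and 1.83 with Sal, 2.24, 2.25, 8.08 and 3.5 under Das, and 1.02, 0.55, 0.865 and 0.73 with S + D. Sal and S + D lay below every control, and Das replicate 3 above them. It fell with S + D (log2 fold change -3.08, SE 0.37, adjusted p = 1.43e-06) and Sal (-2.35, SE 0.35, adjusted p = 1.78e-05), and with Das the value was -0.72 (adjusted p = 0.0975). Without Das replicate 3 it fell with Das too (-1.29, adjusted p = 0.000387), as did TMPO (-0.83, adjusted p = 0.000387). TMPO fell from 282 ± 40 CPM (SD, n = 4) to 87.3 ± 9.1 with S + D and 107 ± 14 with Sal (-1.71 and -1.41, adjusted p = 1.6e-06 and 1.25e-05).

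VIM-AS1 and VIM, the gene of the intermediate filament protein vimentin, rose together. VIM-AS1 was at 0.569, 0.635, 0.973 and 1.02 CPM in the control of 72 h, 6.93, 6.08, 6.7 and 7.45 with Sal, 3.98, 3.86, 1.37 and 3.36 under Das, and 11, 8.56, 8.89 and 9.85 with S + D. All treated libraries were above the controls. It rose by 3.05 with Sal (SE 0.28, adjusted p = 1.18e-07), 1.95 with Das (adjusted p = 7.84e-05) and 3.55 with S + D (SE 0.28, adjusted p = 2.41e-08). VIM rose from 34.6 ± 4.5 CPM (SD, n = 4) to 101 ± 14 with S + D (1.52, SE 0.20, adjusted p = 3.08e-06) and 56.3 ± 3.1 with Sal (0.68, adjusted p = 0.00495, or 0.0329 in the numbered libraries alone), so the ratio of VIM-AS1 to VIM also rose, by 2.06 and 2.39. The pair shares 656 of the 2126 exon bases of VIM-AS1.

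FOXP4-AS1 and FOXP4, a forkhead transcription factor gene, fell together with each treatment at 72 h and share no exon bases. The member went from 2.98 ± 0.8 CPM (SD, n = 4) to 0.19 ± 0.048, 1.29 ± 0.51 and 0.531 ± 0.1 after Sal, Das and S + D (adjusted p = 5.01e-08, 0.00241 and 9.83e-07), and on the log2 scale FOXP4 fell by 1.49, 0.77 and 1.18. The Das call of FOXP4-AS1 was lost in 4 fits without 1 library (adjusted p up to 0.0135). ZEB1-AS1 rose with S + D (0.81, SE 0.23, adjusted p = 0.00449) and so did ZEB1, a repressor known for its part in the epithelial-mesenchymal transition (2.76, SE 0.51, adjusted p = 0.000131), at 0.111 ± 0.11 CPM (SD, n = 4) in the control and 0.795 ± 0.087 with S + D. They share 396 exon bases, and the call of ZEB1-AS1 was lost in 5 fits without 1 library (adjusted p up to 0.0156). TP73-AS1 fell with Sal (-0.69, adjusted p = 0.00279), and TP73, of the p53 family and with 633 exon bases in common, fell with all 3 treatments, most with S + D (-2.02, adjusted p = 3.78e-07). The call of TP73-AS1 was lost in 3 fits without 1 library (adjusted p up to 0.0113).

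The other antisense RNAs of the list of often studied ones changed little or alone. MCM3AP-AS1 fell with Sal and S + D at 72 h (-0.81 and -1.26, adjusted p = 0.0046 and 0.000119), while MCM3AP, a gene of mRNA export with 1752 exon bases in common, had values of -0.10 and -0.16 and was not called. The Sal call of MCM3AP-AS1 was lost in 3 fits without 1 library (adjusted p up to 0.0234). EPB41L4A-AS1 rose with S + D at 72 h (0.67, adjusted p = 0.00906) and TTN-AS1 with S + D at 24 h (0.82, adjusted p = 0.00134). Of their exon bases, 54.3% and 55.1% are shared with other genes. The EPB41L4A-AS1 call was lost in 5 fits without 1 library (adjusted p up to 0.031). NNT-AS1, GABPB1-AS1, SBF2-AS1 and HOXB-AS1 passed the threshold in no comparison at 72 h, although SBF2-AS1 had an adjusted p of 0.00798 with S + D in the numbered libraries alone.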

How the data were processed

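Total RNA of MDA-MB-468 cells was made into libraries with a TruSeq RNA kit and sequenced in 50-base single-end reads. Per the submitters' processing notes, the authors used bcl2fastq 2.19, STAR 2.5.2, Cufflinks 2.1.1 and DESeq2 on GRCh37. The deposited table holds raw read counts per Ensembl gene for 32 libraries, without normalization, and the counting program, its annotation and its use of strand are not given in the sources used here. Of its identifiers 46537 matched the annotation that gave symbols and positions. The members, gene lists and tests were chosen with earlier results of these data known.

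Genes were kept by filterByExpr (minimum count 10), scaled by TMM and tested by quasi-likelihood F tests in edgeR 4.0.16 (R 4.3.3), and p-values were adjusted by Benjamini-Hochberg over all genes tested. Each time point was fitted on its own with 16 libraries, and a fit of all 32 served for control over time. A gene was called at an adjusted p under 0.01. Levels are TMM-scaled CPM. Single ratios were tested by an exact two-sided permutation test, and p-values of biological replicates of 1 cell line measure the spread between these cultures. Simulated counts gave back 49% of genes changed by 1 and 90% of those changed by 2 on the log2 scale for S + D at 72 h (16682 genes), with 2 false calls. In the simulation 200 genes were changed and counts were drawn independently between libraries. Many more genes were called in the real comparison, and its unnumbered libraries deviated together, so these rates need not hold there.

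Same-numbered libraries deviated together at 24 h in every pair of conditions (correlation 0.156 to 0.364) but not at 72 h (-0.0443 to 0.277). A threshold of 0.1 for every pair was thus met at 24 h only. Meeting it does not show a pairing by number, and the labels state none. The main fits at both times held no term for the replicate number, so their p-values are unpaired. Numbered libraries with different numbers correlated alike (0.125 to 0.407 at 24 h), so the numbered libraries as a whole deviated together against the unnumbered ones, and the block largely stands for that division. Alternatives were DESeq2 1.42.0 size factors (RLE) or its test, no filter, the replicate block, numbered libraries only, a fit of only the 2 groups, a log2 fold change cut-off of 1.5, a floor of 2 CPM, a pseudocount of 2 in place of 0.5 in the ratio, no minimum difference of ratios, and each library left out.

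Named members were, per drug comparison, the 3 largest rises and the 3 largest falls past an absolute log2 fold change of 1.5 with groups apart, the 5 most abundant, the 3 pairs whose ratio rose and the 3 whose ratio fell most under S + D at 72 h, the 3 pairs called in opposite directions with the largest ratio differences at each time point, a list of often studied antisense RNAs, and the genes nearest the floor. Of that list, genes that are not members are not described. Promoter windows came from RefSeq.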

Additional observations from a re-analysis of the deposited data

Results flagged for a closer look

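Among 18 named members, a single library stood far from the other 3 of its group in 15 of 144 groups (10.4%). For independent normal values about 1 in 20 would be expected. The values here are CPM, some near 0, and the members share the same libraries, so the share is a description only. In 11 of the 15 it was the unnumbered library. At 24 h that library was the lowest for AFAP1-AS1 in the control (168 CPM, the others 202 to 206) and with S + D (211, the others 306 to 322), for FGD5-AS1 with Das (69.7, the others 82.5 to 83.9) and for RASAL2-AS1 with S + D (0.146, the others 0.359 to 0.383). It was the highest at 24 h with Sal for INKA2-AS1 (1.68, the others 0.243 to 0.412), SGSM2-AS1 (2.66, the others 0.255 to 0.589), SLCO4A1-AS1 (7.9, the others 1.35 to 1.53) and TMEM147-AS1 (34.4, the others 21 to 22.4), and with S + D for SLCO4A1-AS1 (12.7, the others 4.31 to 4.61).

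At 72 h the unnumbered library was the highest for NR2F1-AS1 with Das (1.2, the others 0.322 to 0.404) and RASAL2-AS1 with Sal (0.686, the others 0.21 to 0.266). A numbered library was the highest for AFAP1-AS1 with Sal (replicate 3, 208, the others 196 to 198), DNMBP-AS1 with Das (replicate 3, 1.87, the others 0.786 to 0.902), SGSM2-AS1 with Das (replicate 1, 0.497, the others 0.0311 to 0.107) and TM4SF18-AS1 with S + D (replicate 2, 0.0262, which is 1 count, the others 0).

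The levels of PAPLN-AS1 with S + D lay on opposite sides of the control at the 2 time points. All 4 treated libraries were above the controls at 24 h (log2 fold change 0.94) and below them at 72 h (-1.83), and the difference between the time points was not tested.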

How the results depend on the processing

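For the number of members called, out of 11, 51 and 115 with Sal, Das and S + D at 24 h and 200, 80 and 214 at 72 h, these alternatives moved the count by over 1.5 times. At 24 h the replicate block gave 34 with Sal and 95 with Das, and the numbered libraries alone gave 38, 120 and 185. With Sal at 24 h, DESeq2 gave 27 and a fit of only the 2 groups 5, and with Das at 72 h that fit gave 44. A log2 fold change above 1.5 left 4, 12 and 29 at 24 h and 97, 18 and 105 at 72 h. Control over time had 6 members, 1 without the filter, 21 with the block, 32 in numbered libraries and 0 past 1.5. Leaving out 1 library in turn gave 5 to 15, 40 to 53, 87 to 113, 175 to 195, 51 to 102 and 188 to 206 in the 6 comparisons, and 0 to 4 in the control over time.

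For pairs with a moved ratio, dropping the minimum difference raised the counts from 12 to 39, 29 to 83 and 69 to 129 at 24 h and from 51 to 96 with Das at 72 h, and numbered libraries gave 45 with Das at 24 h. Leaving out 1 library gave 13 to 22, 29 to 43, 67 to 86, 125 to 136, 44 to 81 and 143 to 152 pairs. Groups with fewer libraries lie apart more easily, so these counts and those of the numbered libraries are not directly comparable with the full ones. At 72 h the replicate block gave 110 members with Das and left the other counts within 1.5 times. No direction of a named result was reversed. Among named genes, calls were lost in 5 results with the numbered libraries alone, 11 with the fit of only the 2 groups, 9 without the filter, 1 with RLE and 0 with DESeq2 or the block, and 180 times over all fits that left out 1 library. Genes with few counts have wide intervals, as given beside them, and recovery in simulated counts was not computed by abundance.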
